A study of Mus musculus with 10 samples.

Results

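The sarcoplasmic reticulum calcium pumps and their small regulators were followed across the EDL, psoas, and soleus muscles of the mouse. They are 5 of the 16112 genes in the count tables, chosen by name: the pump genes Atp2a1 and Atp2a2 and the regulator genes Sln, Pln, and Strit1. All 5 were found through their Ensembl identifiers, as genes of the pump and its small regulators. Earlier results of these data were known when they were chosen. The study had listed Atp2a2 and Strit1 among the top-loading genes of the principal component that separates soleus from EDL and psoas. The numbers of these genes called therefore describe a known set, with the share of all genes given for scale. RNA-seq was carried out on 3 EDL, 3 psoas, and 4 soleus samples from mice labelled as strain B6C3Fe a/a-Ttnmdm/J and genotype wild type. The colony was kept from mice heterozygous for mdm, an allele of the titin gene Ttn, and only animals homozygous for the wild type allele were used. The EDL and psoas samples came from mice aged 42, 54, and 44 days (replicates 1 to 3), and the soleus samples from mice aged 42, 44, 32, and 44 days (replicates 1 to 4). The labels give no treatment, and the mice had also been used for a separate experiment, which set whose muscles could be taken. The question put to these samples was how the muscles differ in gene expression, with EDL and psoas taken as fast-twitch and soleus as slow-twitch.

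In a striated muscle fiber, calcium leaves the sarcoplasmic reticulum to start contraction and is pumped back by SERCA, a calcium ATPase in the membrane of that compartment, to end it. Atp2a1 encodes SERCA1, the pump of fast fibers, and Atp2a2 encodes SERCA2, the pump of slow fibers and of the heart. Small transmembrane peptides bind the pump: sarcolipin (Sln) and phospholamban (Pln) inhibit it, and the peptide of Strit1, also called DWORF, counteracts that inhibition.

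Total counts ranged from 15016122 to 47825953 in EDL, from 13820086 to 50431713 in psoas, and from 12737971 to 26848423 in soleus. Levels are given in FPKM (fragments per kilobase of exon and library depth), which allows genes of different length to be compared, and differences between muscles come from the counts. The 7 measured markers of slow fibers summed to 59.5 to 290.1 normalized CPM (counts scaled to library size) in EDL, 16.5 to 76.5 in psoas, and 16053 to 26442 in soleus, the muscle that the study takes as slow-twitch. The reads of EDL 1, EDL 2, psoas 1, and psoas 2 were quality-trimmed and those of the other 6 libraries were not, so trimming cannot be told apart from the muscle in much of the comparison with soleus. By the labels, 5 libraries are from males and 4 from females, and the sex of soleus 3 is not given. All trimmed libraries are male, and of the untrimmed ones with a known sex only soleus 1 is. Sex is thus uneven between muscles and largely follows trimming. EDL 3 stood apart from the other EDL libraries in the pump genes, and results that rest on it are given with and without it. The labels hold 7 animal codes for the 10 libraries, while the study's methods count fewer mice, and 3 codes occur in 2 muscles each.

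Upstream sequence is shown for the genes of 1 pump and 2 regulators as genomic context for the contrast described here. Strit1 was near the detection limit in psoas and ranked between 111 and 387 by FPKM in soleus, whereas Atp2a1 was abundant everywhere. That rank of Strit1 rests on its short annotated length, and its normalized CPM in soleus was 22.3 to 77.9. The sequences are from RefSeq (GRCm38.p6), which gave a promoter entry for 3 of the 5 genes. They run 5′ to 3′ on the gene's strand and end at the base before the annotated start or, for Atp2a1 and Pln, before the more upstream start of GENCODE M21. Capitals mark E-boxes (CANNTG on either strand), the motif bound by MyoD and related myogenic factors. The windows are chr3:63483907-63484156 (minus strand) for Strit1, chr10:53337436-53337666 (plus strand) for Pln, and chr7:126463109-126463323 (minus strand) for Atp2a1.
Strit1: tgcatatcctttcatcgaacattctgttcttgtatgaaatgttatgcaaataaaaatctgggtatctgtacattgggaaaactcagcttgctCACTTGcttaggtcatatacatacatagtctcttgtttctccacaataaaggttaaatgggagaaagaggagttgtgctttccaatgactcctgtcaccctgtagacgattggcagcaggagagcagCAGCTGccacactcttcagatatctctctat
Pln: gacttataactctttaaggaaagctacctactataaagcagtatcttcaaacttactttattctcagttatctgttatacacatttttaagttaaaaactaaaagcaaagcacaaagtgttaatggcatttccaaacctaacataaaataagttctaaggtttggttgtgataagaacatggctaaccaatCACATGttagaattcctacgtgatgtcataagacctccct
Atp2a1: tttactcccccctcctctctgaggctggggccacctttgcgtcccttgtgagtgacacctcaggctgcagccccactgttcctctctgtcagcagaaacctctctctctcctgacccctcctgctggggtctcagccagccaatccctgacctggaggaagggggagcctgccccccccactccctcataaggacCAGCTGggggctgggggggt
In the 250 bases before the RefSeq start, Strit1 had 2 E-boxes and Pln and Atp2a1 had 1 each, and 66.2% of the 32851 mouse promoter windows of that length held at least 1. No match to the MEF2 site (in 2.92% of all windows), the MCAT element CATTCC (12.6%), the CArG box (1.47%), or the GC box GGGCGG (32.7%) was present on either strand of these 3 windows. E-boxes do not overlap with one another in the windows shown. GC content of the 250 bases was 40.8% for Strit1, 32.8% for Pln, and 64.0% for Atp2a1, against a median of 52.4% over all windows. These are matches of letters only.

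Soleus held both pump transcripts at high levels, whereas EDL and psoas held almost exclusively Atp2a1. Atp2a1 (ENSMUSG00000030730, chr7:126445858-126463108, minus strand, GRCm38) was measured at 491, 416, and 1147 FPKM in EDL 1 to 3. In psoas 1 to 3 it was at 1353, 1011, and 1659 FPKM. In soleus 1 to 4 it was at 572, 542, 376, and 458 FPKM. All psoas libraries except psoas 2 lay above every other library, psoas 2 lay below EDL 3, and the soleus libraries overlapped the lower EDL libraries. The mean was 685 ± 402 FPKM in EDL (SD, n = 3), 1341 ± 325 in psoas (n = 3), and 487 ± 88.1 in soleus (n = 4), and the gene ranked between 36 and 101 by FPKM among 16032 genes in every library.

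Atp2a2 (ENSMUSG00000029467, chr5:122453513-122502225, minus strand) gave the opposite picture. It was at 2.86, 3.01, and 12.8 FPKM in EDL 1 to 3. It was at 3.73, 4.91, and 6.18 FPKM in psoas 1 to 3. In soleus 1 to 4 it reached 595, 866, 1096, and 763 FPKM, above every EDL and psoas library, with ranks between 41 and 73. In EDL its rank was between 1851 and 5538, and the highest EDL value, that of EDL 3, lay above all psoas values.

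**Figure D1:**
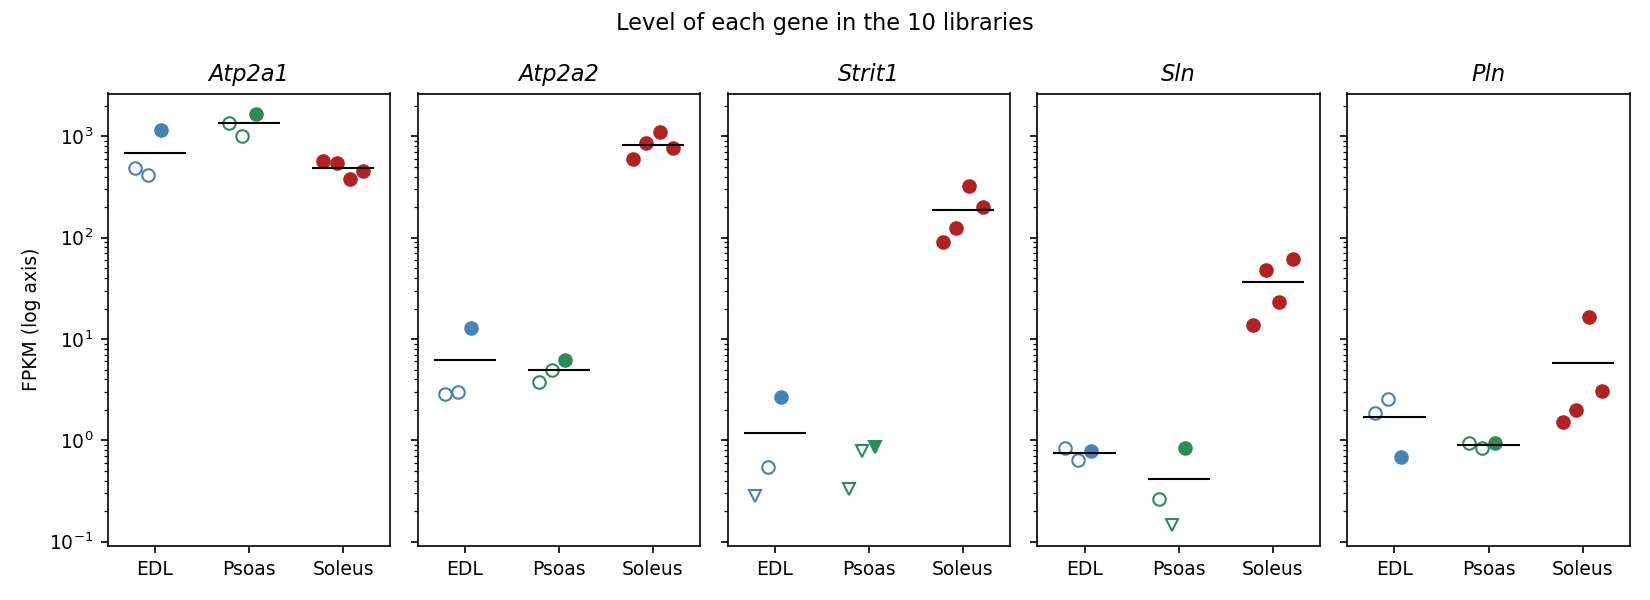
FPKM (log axis) of the pump and regulator genes in each library, by muscle. Each point is 1 library, open where its reads were quality-trimmed, the line is the mean of the muscle, and a triangle marks a library with at most 3 counts, drawn at the level of 3 counts. Atp2a2, Strit1, and Sln in soleus lie above all EDL and psoas libraries, and in Pln the soleus 3 library at 16.6 FPKM stands apart.

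Relative to one another, the pumps shifted from a small share of Atp2a2 to a majority. Atp2a2 made up 0.579%, 0.717%, and 1.11% of the summed FPKM of Atp2a1 and Atp2a2 in EDL 1 to 3. It made up 0.275%, 0.484%, and 0.371% in psoas 1 to 3. In soleus 1 to 4 it made up 51.0%, 61.5%, 74.4%, and 62.5%. The mean share was 0.801% ± 0.273 in EDL, 0.377% ± 0.105 in psoas, and 62.4% ± 9.59 in soleus (SD). On the FPKM scale, Atp2a2 exceeded Atp2a1 in each soleus library, by a ratio of 1.04 to 2.91. Atp2a1 overlaps Rabep2 on the opposite strand over 763 of its 3477 exonic bases, and the strand setting of the counting is not given. Reads lost or gained there would change the ratio, so the order in soleus 1, at 1.04, is not secure. The muscles that carry the same animal code showed the same order. Code 765A had a share of 1.11% in EDL 3 and 61.5% in soleus 2, code 765B had 0.371% in psoas 3 and 62.5% in soleus 4, and code 659 had 0.275% in psoas 1 and 51.0% in soleus 1. These shares are descriptions of levels, without a test of their own.

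The sum of both pumps did not separate soleus from psoas. It was 1346 ± 325 FPKM in psoas and 1317 ± 146 in soleus, with overlapping libraries (1016 to 1666 in psoas, 1167 to 1472 in soleus). In EDL it was 691 ± 408 FPKM, at 419 in the lowest and 1160 in the highest library, and the highest was EDL 3. In soleus 3 the share of Atp2a2 was the highest of the soleus libraries and the level of Atp2a1 the lowest. The pump transcripts share no stretch of 75 bases, the read length, even with 2 mismatches allowed, and their longest common run was 44 bases, so a read of full length from one does not match the other.

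**Figure D2:**
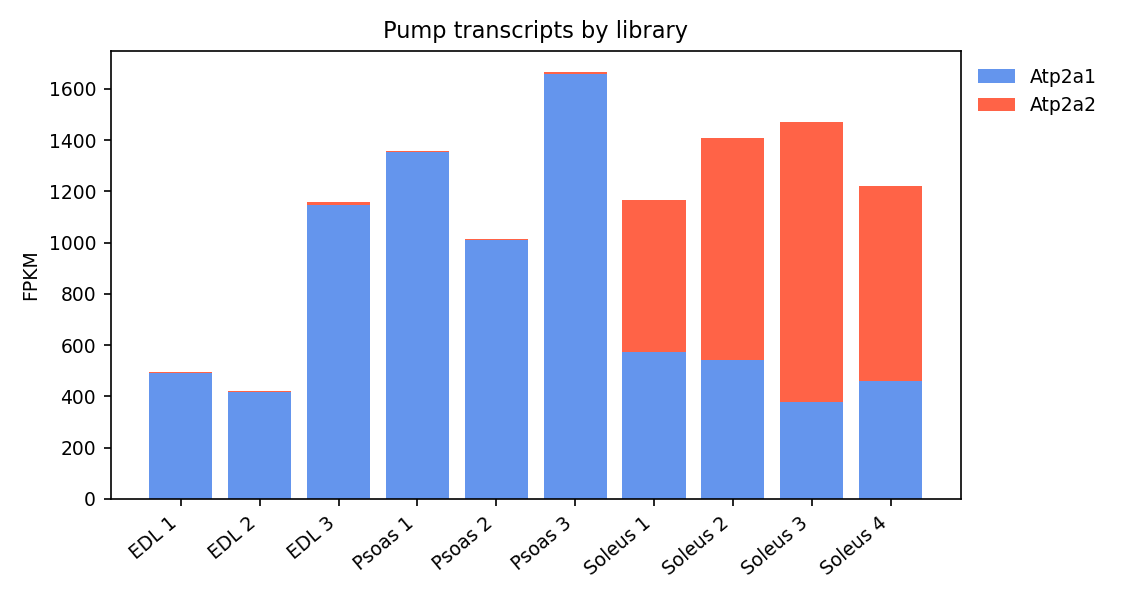
FPKM of Atp2a1 and Atp2a2 stacked for each of the 10 libraries, with the bar starting at 0. Atp2a2 is at most 12.8 FPKM in EDL and psoas and between 595 and 1096 FPKM in soleus, and the height of the whole bar overlaps between psoas and soleus.

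Among the regulators, Strit1 had the widest range. Strit1 (ENSMUSG00000103476, chr3:63481112-63483879, minus strand) was counted 3, 7, and 12 times in EDL 1 to 3, or 0.284, 0.541, and 2.68 FPKM. In psoas 1 to 3 it was counted 0, 2, and 0 times, all within the upper limit of 3 counts set by an observation of 0. In soleus 1 to 4 it was counted 326, 1061, 977, and 958 times, or 90.8, 126, 323, and 203 FPKM. The soleus libraries thus lay far above the others, with a spread among themselves of 103 FPKM (SD, n = 4) around a mean of 186 FPKM and ranks by FPKM between 111 and 387. The annotated exon length of Strit1 is only 243 bp, against 1318 bp for Sln and 2759 bp for Pln, so that its level per kilobase depends on that annotation more than the levels of the other genes do.

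Sln (ENSMUSG00000042045, chr9:53850164-53854560, plus strand) was at 0.838, 0.641, and 0.782 FPKM in EDL 1 to 3. In psoas 1 to 3 it was at 0.263, 0.146, and 0.848 FPKM, of which psoas 2 rests on 3 counts. In soleus 1 to 4 it was at 13.7, 47.5, 23.0, and 61.7 FPKM, above all other libraries. The order of the soleus libraries differed from that of Strit1, with soleus 4 highest in Sln and soleus 3 highest in Strit1.

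Pln (ENSMUSG00000038583, chr10:53337667-53345987, plus strand) was low in all muscles except in 1 library. It was at 1.88, 2.58, and 0.688 FPKM in EDL 1 to 3. It was at 0.948, 0.835, and 0.937 FPKM in psoas 1 to 3. In soleus 1 to 4 it was at 1.52, 1.98, 16.6, and 3.04 FPKM. Soleus therefore overlapped EDL and lay above psoas, and soleus 3, the library of the 32-day-old mouse, was far above the other soleus libraries. Without soleus 3 the mean of soleus was 2.18 FPKM against 5.78 ± 7.23 with it (SD, n = 4). The gene overlaps Cep85l on the opposite strand over 141 of its 2759 exonic bases, and the strand setting of the counting is not given in the sources used here. Normalized CPM of Cep85l was 19.1 in soleus 3, the lowest of the soleus libraries.

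Set against the pumps, Sln, Pln, and Strit1 were scarce in the fast-twitch muscles. Further peptides that bind SERCA, Mrln and Arln, are given below and are not in these sums. Per 100 pump transcripts, on the FPKM scale, the sum of Sln, Pln, and Strit1 was 0.621 ± 0.270 in EDL, 0.115 ± 0.0303 in psoas, and 17.02 ± 7.44 in soleus (SD), with 9.08, 12.4, 24.6, and 21.9 in soleus 1 to 4. In soleus, on this scale, Strit1 made up 80.6% ± 8.14 of the 3 regulators, Sln 17.4% ± 9.47, and Pln 2.07% ± 1.67. This order rests on the short annotated length of Strit1. In normalized CPM, which is not corrected for length, Strit1 made up 41.7% ± 10.04 and Sln 45.6% ± 19.9, and Sln exceeded Strit1 in soleus 2 and soleus 4. In psoas, Pln held the largest share by FPKM in every library, at 62.0% ± 14.1 on average. In EDL, Pln held 62.6% and 68.6% in EDL 1 and EDL 2, whereas in EDL 3 it held 16.6% and Strit1 64.6%, from 12 counts of Strit1. Without correction for length the sum was 0.336, 0.0668, and 1.58 counts per 100 pump counts in EDL, psoas, and soleus, an order of muscles that is the same at a smaller size.

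**Figure D3:**
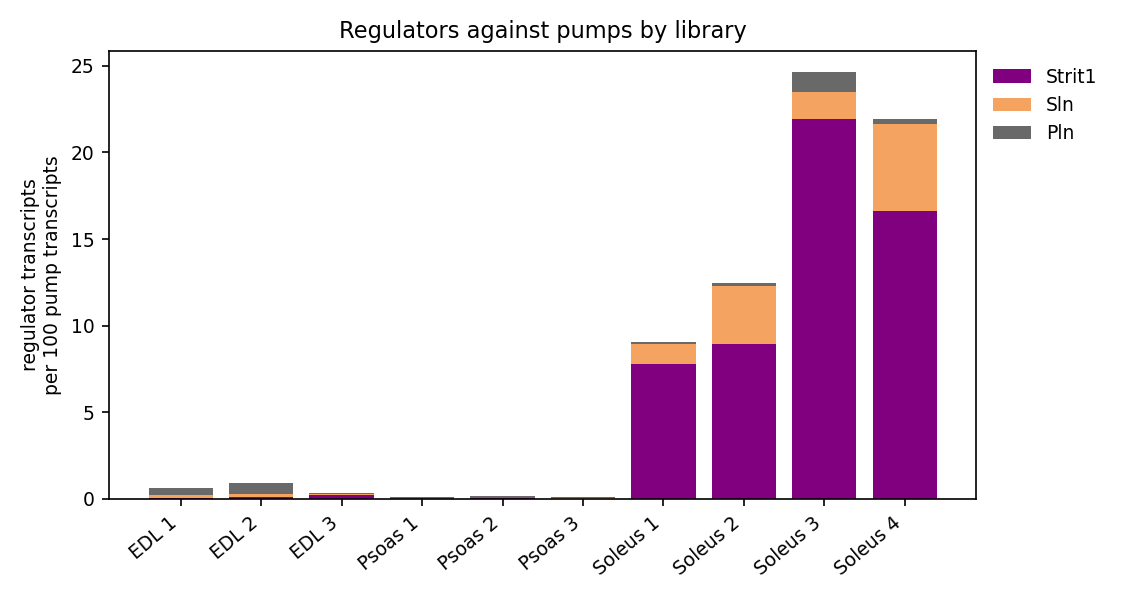
Transcripts of Strit1, Sln, and Pln per 100 transcripts of both pumps in each library, computed from FPKM and stacked. The soleus libraries range from 9.08 to 24.6, mostly Strit1, and all EDL and psoas libraries are below 1.

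For the differences between muscles, edgeR's quasi-likelihood test was fitted over all genes and libraries, and a gene was called at a Benjamini-Hochberg adjusted p (p-adj) under 0.01 and a fold change over 2. In soleus vs EDL, 3 of the 5 genes were called, all higher in soleus, against 3.59% of all genes called higher, 2.18% called lower, and 5.77% called in either direction. The same 3, Atp2a2, Strit1, and Sln, were called higher in soleus vs psoas, where the background was 2.99% higher, 2.71% lower, and 5.69% in either direction. In psoas vs EDL, 0 of the 5 were called, against 2.11% of all genes (0.54% higher and 1.57% lower in psoas). The psoas vs EDL count was also 0 by DESeq2 and by limma-voom, and at an unadjusted p under 0.05 Atp2a1 alone of the 5 passed, as did 4679 of all genes. The groups did not overlap in normalized CPM for 3 of the 5 genes in soleus vs EDL (29.5% of all genes), for all 5 in soleus vs psoas (25.8%), and for 0 in psoas vs EDL (29.6%).

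The median log2 fold change of the 5 genes was 5.62 in soleus vs EDL and 6.60 in soleus vs psoas, where the median of all genes was -0.05 and 0.02, and -0.96 in psoas vs EDL, where that of all genes was 0.01. Atp2a2 was higher in soleus by a log2 fold change of 7.07 (SE 0.66, p-adj 0.000105) against EDL and 7.42 (SE 0.68, p-adj 9.08e-05) against psoas. Sln was higher in soleus by 5.62 (SE 0.62, p-adj 0.000233) against EDL and 6.60 (SE 0.69, p-adj 0.00017) against psoas, or 49.3-fold and 97.0-fold. Strit1 was higher in soleus by 7.70 (SE 0.74, p-adj 0.000111) against EDL. Against psoas, Strit1 was called as well (p-adj 9.97e-05), and the 3322 summed counts in soleus against 2 in psoas, scaled to library size, gave a ratio of 1416 with an exact 95% interval from 392 to 11695, which covers counting error only. These calls held in each of 22 fits with another test, scaling, filter, or covariate, or without 1 library, and all 4 soleus libraries lay above the EDL and psoas libraries in each of these genes. With the untrimmed libraries alone (1 EDL, 1 psoas, and 4 soleus), the spread comes from soleus only, and the lone EDL and psoas libraries are assumed to vary like soleus. On that assumption, Atp2a2 was at 5.97 (p-adj 0.00765) against EDL and 7.06 (p-adj 0.00598) against psoas. In that fit Sln was at 5.50 (p-adj 0.0537) and 5.42 (p-adj 0.061), and Strit1 at 6.05 (p-adj 0.0279) against EDL and at p-adj 0.0237 against psoas.

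Atp2a1 was not called in any comparison by this rule. In soleus vs psoas its log2 fold change was -1.43 (SE 0.36, p-adj 0.0208), with every soleus library below every psoas library. The p-adj of this difference ranged from 0.000207 to 0.525 over the alternatives, and it was called by DESeq2, in the fit of these 2 muscles alone (0.00713), with read trimming as a covariate (0.00245), with the animal code as a random effect (0.00673), and without EDL 3 (0.00339). In soleus vs EDL it was -0.48 (SE 0.36, p-adj 0.361), and 0.12 without EDL 3. In psoas vs EDL it was 0.95 (SE 0.39, p-adj 0.13), and without EDL 3 it was 1.55 (p-adj 0.00813), past the thresholds. Within the trimmed libraries of psoas and EDL it was 1.34 (p-adj 0.0427) (2 libraries each), and between the untrimmed ones, 1 of each muscle, it was 0.50, a value without a test of these muscles.

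Pln was not called either. In soleus vs EDL its log2 fold change was 1.70 (SE 0.75, p-adj 0.129) and in soleus vs psoas 2.66 (SE 0.80, p-adj 0.0467), over 7 libraries in each. Without soleus 3 these values were 0.30 (p-adj 0.65) and 1.28 (p-adj 0.079). For psoas vs EDL, Pln was at -0.96 (SE 0.80, p-adj 0.469), Sln at -0.98 (SE 0.71, p-adj 0.393), and Atp2a2 at -0.35 (SE 0.52, p-adj 0.708), which turned to 0.74 without EDL 3. The 2 counts of Strit1 in psoas against 22 in EDL gave a ratio of 0.153 with an exact 95% interval from 0.0174 to 0.622 for counting error, and the test over libraries gave a p-adj of 0.266.

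**Figure D4:**
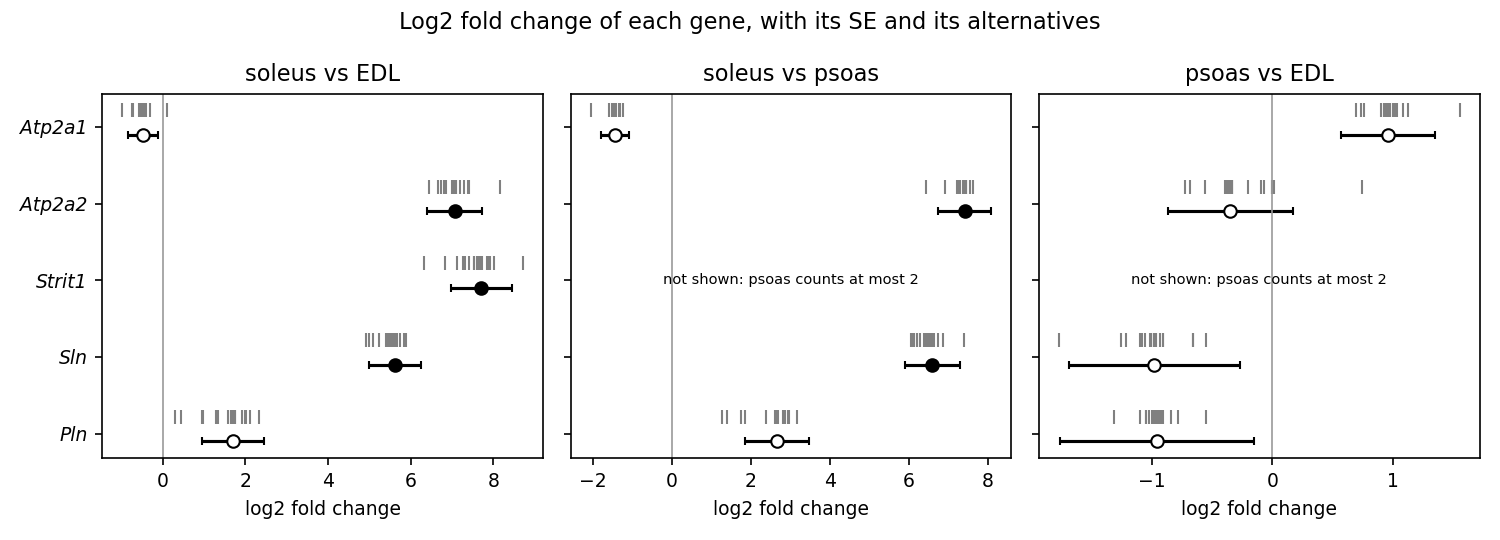
Log2 fold change (x axis) of each gene in the comparisons of muscles from edgeR, with its SE as the bar, filled where the gene was called. The vertical ticks above each point are the values under other tests, scalings, covariates, or left-out libraries. Strit1 is left out where psoas is compared because psoas had 2 counts in all. Atp2a2, Strit1, and Sln lie between 5.62 and 7.70 in soleus vs EDL, and the ticks of Atp2a2 in psoas vs EDL fall on both sides of 0.

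EDL 3 differed from the other EDL libraries in both pumps. Its log2 level of Atp2a1 was 1.35 above the mean of EDL 1 and EDL 2, a difference that exceeded that of 99.5% of genes, and that of Atp2a2 was 2.10 above (99.9% of genes). Pln was 1.45 below on this scale, where 2.64% of genes were lower. The slow fiber markers summed to 290.1 normalized CPM in EDL 3 and to 59.5 and 103.6 in EDL 1 and EDL 2. The fast fiber markers also summed highest in EDL 3, at 104799 against 79236 and 76271. So did the genes of calcium release and storage, at 7955 against 4321 and 4615. The smooth muscle and adipocyte sums were lower in EDL 3 than in EDL 1 and EDL 2. EDL 3 is also the only untrimmed EDL library and the only one labelled female, and the part of these in its pump levels was not tested. In psoas, the untrimmed library exceeded the mean of the trimmed ones by 0.54 in Atp2a1 and 0.55 in Atp2a2.

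Markers of fiber types and other cell types were read beside these genes. In bulk muscle, fewer cells or fibers of a type and less RNA per cell cannot be told apart. All 7 slow fiber markers were called higher in soleus in both comparisons. Of the 9 fast fiber markers 4 were lower against EDL and 5 against psoas, while Myh2, the myosin of fast oxidative fibers, was higher in soleus against EDL. For scale, 3.59% of all genes were called higher and 2.18% lower in soleus vs EDL, and 2.99% and 2.71% in soleus vs psoas. Of 8 heart muscle markers, Nppa, Nppb, Myl7, and Mybpc3 are not among the genes in the tables, and the sum of the other 4 was 1161 to 2714 normalized CPM in soleus and at most 40.5 elsewhere. Nearly all of that sum was Myh6, at 1151 to 2707 normalized CPM in soleus. The heart troponin Tnni3 was below 1 in every library and at or under 3 counts in EDL 3 and in all psoas libraries. Of the 4 heart markers measured, Myh6 alone was called higher in soleus vs EDL. In soleus vs psoas, 3 were called higher: Myh6, Tnni3 (p-adj 0.00401), and Tnnt2 (log2 fold change 1.72, p-adj 0.00987). Myl4 was not called there (1.46, p-adj 0.0184). For all 4, soleus and psoas did not overlap (25.8% of all genes). In psoas vs EDL, 0 were called. Smooth muscle, where Pln is also expressed, had a summed marker level of 43.6 to 87.1 in EDL, 43.6 to 76.2 in psoas, and 56.2 to 80.5 in soleus. None of its 5 markers was called by edgeR, DESeq2, or limma-voom in any comparison. At an unadjusted p under 0.05, 0, 2, and 1 passed in soleus vs EDL, soleus vs psoas, and psoas vs EDL. Of all 16112 genes, 5646, 4574, and 4679 passed in the same order. Soleus 3 was the lowest soleus library in the smooth muscle sum. Tendon markers moved with the muscles too, with a sum of 464 to 500.2 normalized CPM in EDL, 26.7 to 68.9 in psoas, and 77.0 to 346 in soleus. Of these 5 markers, 4 were called higher in soleus vs psoas (2.99% of all genes) and 5 lower in psoas vs EDL (1.57% of all genes). The 5 measured markers of regenerating or immature fibers summed to 923 to 1020 in EDL, 1037 to 1552 in psoas, and 379 to 534 in soleus, mostly Myh8, which was called lower in both soleus comparisons, and Ncam1 was called higher in soleus vs psoas. The adipocyte sums overlapped between all muscles (81.6 to 212). Most of each sum was Fabp4, at a mean of 152, 108, and 133 normalized CPM in EDL, psoas, and soleus. None of the 5 adipocyte markers was called by edgeR or limma-voom, and DESeq2 called 2 higher in each soleus comparison. At an unadjusted p under 0.05, 4 were higher in soleus vs EDL, 3 in soleus vs psoas, and 1 in psoas vs EDL, and 0 were lower. The part of these other cells in the levels of the pumps and regulators was not tested.

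Of 10 other pumps and exchangers of calcium, 7 were in the tables. For soleus against EDL and against psoas, 0 were called higher by edgeR, DESeq2, or limma-voom, and edgeR called 1 and 2 lower (2 in each by DESeq2). Of all genes, edgeR called 3.59% and 2.99% higher and 2.18% and 2.71% lower in these comparisons. At an unadjusted p under 0.05, 1 of the 7 was higher in each, and 3 and 2 were lower. Of all 16112 genes, 5646 and 4574 passed that p in either direction. In psoas vs EDL, 0 were called by any of these tools, with 2 at an unadjusted p under 0.05 and 2 whose groups did not overlap. These counts are near the background, where 4679 of all genes passed that p and 29.6% did not overlap. Slc8a1, a sodium-calcium exchanger of the plasma membrane, was lower in soleus by a log2 fold change of -1.14 (p-adj 0.00455) against EDL and -1.55 (p-adj 0.000841) against psoas, at 0.183 to 0.237 FPKM in soleus. Atp2b3, a plasma membrane calcium pump, was lower against psoas at -1.34 (p-adj 0.00477). Atp2a3, the third SERCA gene, was at 0.278 to 0.741 FPKM in all libraries and was not called in any comparison, with log2 fold changes of -0.25, 0.46, and -0.71 in soleus vs EDL, soleus vs psoas, and psoas vs EDL.

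Further micropeptides that bind SERCA did not follow Strit1 and Sln. Of 3 listed, Mrln (myoregulin, an inhibitor of SERCA in skeletal muscle) and Arln (another-regulin) were in the tables. Mrln was at 19.7, 16.7, and 22.3 FPKM in EDL, at 28.9, 46.0, and 27.4 in psoas, and at 15.1, 6.51, 10.7, and 11.3 in soleus. All soleus libraries lay below all EDL and psoas libraries. It was lower in soleus by a log2 fold change of -0.84 (p-adj 0.0446) against EDL, which was not called, and by -1.62 (p-adj 0.00206) against psoas, which was. Arln was at 11.2 ± 0.269 FPKM in EDL, 13.2 ± 2.81 in psoas, and 15.3 ± 2.44 in soleus, and was not called. With these included, the 5 measured micropeptides came to 5.89 ± 2.29 per 100 pump transcripts in EDL, 3.92 ± 1.84 in psoas, and 19.1 ± 7.30 in soleus. Mrln made up 56.7% ± 3.41 of them in EDL and 69.2% ± 6.80 in psoas but 5.21% ± 3.80 in soleus, where Strit1 made up 70.5% ± 8.43. By FPKM, and so with the short length of Strit1, the main micropeptide transcript was Mrln in each EDL and psoas library and Strit1 in each soleus library.

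The 10 other proteins listed as binding or modifying the pump gave 0 calls in soleus vs EDL. There, 4 did not overlap (29.5% of all genes) and 3 had an unadjusted p under 0.05 (5646 of all 16112 genes). DESeq2 and limma-voom also called 0 there. In soleus vs psoas and in psoas vs EDL, where 5.69% and 2.11% of all genes were called, edgeR called 1 in each. That 1 was Ank1, whose muscle isoform binds sarcolipin and SERCA1, higher in psoas than in EDL by 1.10 (p-adj 0.00813) and lower in soleus than in psoas by 1.03 on the log2 scale (log2 fold change -1.03, p-adj 0.00333). Its 3 psoas libraries (2.67 to 3.46 FPKM) lay above all other libraries (1.16 to 1.91 FPKM). Sarcalumenin (Srl) and the histidine-rich calcium binding protein (Hrc), abundant proteins of the reticulum, were at 231 to 394 and 148 to 215 FPKM over all libraries.

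Of the 15 kinases, phosphatases, and related proteins that act on phospholamban, 3 were called higher and 2 lower in soleus vs EDL, 1 higher and 3 lower in soleus vs psoas, and 1 higher in psoas vs EDL. Of all genes, 5.77%, 5.69%, and 2.11% were called in these comparisons. Akap7, an anchoring protein that brings protein kinase A to phospholamban, was higher in soleus in both comparisons, by 1.25 (p-adj 0.000452) and 1.46 (p-adj 0.000218). Hspb6 was higher against EDL in soleus (1.98, p-adj 8.84e-05) and in psoas (1.30, p-adj 0.00288), and Prkaca, the catalytic subunit of protein kinase A, was higher in soleus against EDL (1.49, p-adj 0.00578). Camk2a, a calcium/calmodulin-dependent kinase, was lower in soleus, by -1.58 (p-adj 0.00146) against EDL and -2.71 (p-adj 8.87e-05) against psoas. Ppp1r3a, which targets protein phosphatase 1 to glycogen and the reticulum, was lower at -1.05 (p-adj 0.00456) and -1.49 (p-adj 0.00065), and Camk2g was lower against psoas at -1.20 (p-adj 0.00334).

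Of the 12 genes of calcium release and storage, 2 were higher and 1 lower in soleus vs EDL, 1 was higher and 3 lower in soleus vs psoas, and 0 were called in psoas vs EDL by edgeR (1 by DESeq2, 1 by limma-voom, and 6 at an unadjusted p under 0.05). Of all genes, edgeR called 5.77%, 5.69%, and 2.11% in these comparisons. In psoas vs EDL, 4679 of all 16112 genes passed that unadjusted p. The calsequestrins, which bind calcium inside the reticulum, went in opposite directions. Casq2, the form of heart and slow fibers, was at 8.57, 7.13, and 10.6 FPKM in EDL, 7.65, 9.73, and 31.9 in psoas, and 55.4, 116, 85.0, and 171 in soleus. It was higher in soleus by 3.62 (p-adj 0.00169) against EDL and 2.73 (p-adj 0.00604) against psoas. Casq1, the form of fast fibers, was at 692 to 1183 FPKM in EDL, 838 to 1005 in psoas, and 221 to 342 in soleus. It was lower in soleus by a log2 fold change of -1.69 (p-adj 0.00109) against EDL and -1.68 (p-adj 0.0011) against psoas. Unlike Atp2a2 among the pumps, Casq2 stayed below Casq1 in each soleus library. Tmem38b, a counter-ion channel of the reticulum, was higher in soleus against EDL (1.62, p-adj 0.000145), and the junctophilins Jph1 and Jph2, which hold the reticulum to the transverse tubules, were lower in soleus against psoas (-1.06, p-adj 0.00673 and -1.26, p-adj 0.00834).

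The profiles most like those of the 5 genes were sought among 12664 genes with a mean of at least 1 CPM, as the root mean square distance of centered log2 levels over the 10 libraries. Nearest to Atp2a2 were Tnnc1, the slow troponin C (0.48), Tpm3, the slow tropomyosin (0.73), and Myh6 (0.76), where the spread of Atp2a2 itself was 3.67 on this scale. Nearest to Strit1 were Tpm3-rs7 (0.72), Tpm3 (0.81), and Atp2a2 (0.82), and the distance between Strit1 and Sln was 0.86. Tpm3-rs7 is a near copy of Tpm3, and its count is uncertain because reads of these genes could be exchanged. Nearest to Sln were Mhrt (0.60), an RNA antisense to Myh7, Lgi1 (0.63), and Tpm3-rs7 (0.65), and since the strand setting is not known, Mhrt cannot be told apart from Myh7. Nearest to Atp2a1 were Pgm2l1 (0.19), Klhl21 (0.22), and Ccdc6 (0.24), at a spread of 0.73. Pln, at a spread of 1.18, was nearest to Mamdc2 (0.49), Tmem252 (0.50), and Serpinb8 (0.54). Of the pairs among the 5 genes, Atp2a2 and Strit1 were closest, and Atp2a1 and Atp2a2 were farthest apart at 4.10. The libraries share the muscles, so these distances describe likeness of levels across muscles and libraries only.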

How the data were processed

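Total RNA of the muscles, stored in RNAlater, was depleted of ribosomal and globin RNA, made into stranded libraries, and sequenced as read pairs. Per the study's methods and the submitters' processing notes, the authors trimmed 4 libraries with Trimmomatic 0.32, aligned with TopHat2 2.1.1 to the mouse genome (mm10, GRCm38.p4), counted reads per gene in R, and removed genes without at least 10 reads in at least 3 samples. The deposited values are raw counts, 1 file per library. The run of each library, the strand setting, and the handling of reads with several alignments are not given in the sources used here. The study's methods call the samples of a muscle biological replicates, and the animal codes within a muscle differ.

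The main test was edgeR 4.0.16 (R 4.3.3) in 1 quasi-likelihood fit of the 10 libraries with TMM and no covariate, beside DESeq2 1.42.0 and limma 3.58.1. Tables and plots were made in Python 3.11.15. The test was tried on counts simulated for soleus vs EDL over 16112 genes. Of 200 genes given a log2 fold change of 3, edgeR recovered 192 (96%), with 1 false call. The simulated libraries were independent and held no effect of trimming, sex, or animal, so these figures do not cover errors from such effects. Normalized CPM used TMM library sizes. FPKM used merged exon lengths of GENCODE M21, which matched 16032 genes. Profiles used log2 of normalized CPM with a pseudocount of 0.5. Counts of 3 or fewer were taken as the floor. Intervals cover counting error only.

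Named genes were the 5 genes, per list and comparison at most 3 called genes in each direction by size of change, Atp2a3, Casq1, Casq2, the other micropeptides, marker genes, and the 3 nearest profiles of each gene. The genes and lists were chosen with earlier results of these data known. Alternatives were other tests, normalizations, filters, thresholds, covariates, a replicate block, thinned counts, other lengths, and fits without each library, with fits of the untrimmed or trimmed libraries, and regulator shares without length correction, added after seeing the data.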

Additional observations from a re-analysis of the deposited data

Results flagged for a closer look

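The level of Pln in soleus 3 was 45.4 normalized CPM, whereas soleus 1, 2, and 4 were at 4.24, 5.68, and 8.60. The gap to the nearest library was 0.894 of the range of the 4 soleus libraries, above Dixon's critical value for 4 samples. Of 7 quantities tested in this way, it was the only one past that value, and chance flags about 1 group in 20. The flag holds for normalized CPM without a log transform. On a log2 scale the gap is a smaller part of the range, and Dixon's ratio was not computed on that scale. Soleus 3 is the only library of a 32-day-old mouse, and its sex is not given. Ryr3, a calcium release channel of the listed genes, was chosen after its values were seen: it was also highest in soleus 3, at 7.10 normalized CPM against 1.64 to 3.27 in the other soleus libraries. The part of age in these values was not tested.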

How the results depend on the processing

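Of 365 alternative log2 fold changes of the 5 genes, 347 kept their direction and side of the thresholds, 8 passed them newly, 4 no longer passed, and 6 changed sign. The number of the 5 genes called stayed at 3, 3, and 0 (soleus vs EDL, soleus vs psoas, psoas vs EDL) in 64 of 73 alternatives. In soleus vs psoas it was 4 in 5 fits, which added Atp2a1 (DESeq2, these muscles alone, the trimming covariate, the animal code as a random effect, and without EDL 3). It was 5 in soleus vs psoas at an adjusted p under 0.05, 1 in either soleus comparison with untrimmed libraries only (1 library of EDL and of psoas, so that the spread is that of soleus), and between 0 and 1 in psoas vs EDL without each library in turn (1 without EDL 3). The values that changed sign were Atp2a1 in soleus vs EDL (0.12 without EDL 3, and from -0.74 to 0.12 over all fits without 1 library), Atp2a2 in psoas vs EDL (0.013 with the trimming covariate, 0.74 without EDL 3, from -0.72 to 0.74 over all fits without 1 library, 0.51 in trimmed libraries), and, in untrimmed libraries, Sln (0.081) and Pln (0.41) in psoas vs EDL. The cause was not tested. Without correction for length, the share of Atp2a2 was 1.39% in EDL, 0.657% in psoas, and 74.1% in soleus, and the regulators came to 0.336, 0.0668, and 1.58 per 100 pump counts. With untrimmed libraries only, the EDL share was 1.11%.

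The count of all genes called was 929, 917, and 340 in the same order. It was 1853, 1563, and 1233 at an adjusted p under 0.05, 1520, 1382, and 1095 by DESeq2, 185, 176, and 27 in the test against a fold change of 2, 371, 566, and 605 with the trimming covariate, and 48, 33, and 0 in untrimmed libraries. In psoas vs EDL it was 153 with these muscles alone, 865 with sex, 215 with thinned counts, and 159 in trimmed libraries. Without 1 library it ranged from 385 (without EDL 1) to 1511 (without EDL 3), from 493 (without psoas 2) to 964, and from 61 (without psoas 2) to 963 (without EDL 3). With the replicate block it was 586, 539, and 146, and the 5 genes again gave 3, 3, and 0 calls. Deviations of libraries with the same number correlated between -0.234 and 0.503, so the numbers were not taken to pair the samples. The 3 pairs of libraries with the same animal code correlated at 0.187, 0.340, and 0.381, and with the code as a random effect (consensus correlation 0.241) the 5 genes gave 3, 4, and 0 calls. With upper-quartile normalization, the median gene stood at -0.141 on the log2 scale in soleus vs EDL, which changed no direction among the 5 genes. At these depths, Strit1 in EDL and psoas and Sln in psoas 2 are near the floor, and a difference between EDL and psoas in Strit1 was not detectable over libraries.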
